A study of Homo sapiens with 30 samples.

Results

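The comparison described here set HepG2 cells given the high dose of an ethanol extract of Palmul-tang against HepG2 cells given vehicle. It compares 6 of the 30 libraries of the series, 3 from Palmul-tang high and 3 from vehicle, chosen by their labels. All 16083 genes that passed a filter on low counts were tested. Palmul-tang high cells received 500 µg/mL for 24 h, vehicle cells received 0.1% DMSO for 24 h per the sample labels, and the labels name no other agent on either side. No DMSO concentration is given for the extract libraries, so whether the solvent matched is not known. The medium (100 µg/mL) and low (20 µg/mL) doses of the same extract and the high dose (500 µg/mL) of the Sibjeondaebo-tang ethanol extract, with 3 libraries each, were used to ask which changes also follow the dose and where Palmul-tang differs from the extract of a related formula. Palmul-tang is a mixture of several medicinal plants, and in traditional use Sibjeondaebo-tang is Palmul-tang with further herbs. HepG2 is a human liver cancer line that still makes many plasma proteins and lipoproteins but little of the drug-metabolising machinery of a normal hepatocyte, and every library came from this one line.

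Messenger RNA was sequenced from libraries made with a directional kit, and totals ran from 21570416 to 32714295 expected counts in Palmul-tang high libraries and from 25715748 to 33674933 in vehicle libraries. All 10 hepatocyte markers were detected and summed to 54500 to 58000 CPM (counts scaled to the library total) in Palmul-tang high and 55600 to 57500 CPM in vehicle. Of 10 fibroblast markers, 4 were at 0 in both groups. The sum was 3.97 to 5.1 CPM in Palmul-tang high and 6.55 to 6.97 CPM in vehicle, nearly all of it PDGFRB. Of 8 endothelial markers, 3 were at 0, with sums of 8.53 to 9.74 CPM in Palmul-tang high and 7.37 to 7.59 CPM in vehicle. Of 10 markers of other epithelial lines, 3 were at 0, with sums of 125 to 149 CPM in Palmul-tang high and 114 to 123 CPM in vehicle. Blood cell markers, 3 of 10 at 0, summed to 1670 to 1770 CPM in Palmul-tang high and 1220 to 1340 CPM in vehicle, nearly all of it lysozyme (LYZ), a secreted protein. Mitochondrial transcripts made up 14.9 to 16.9% of counts in Palmul-tang high and 12.4 to 14.5% in vehicle. The part of these differences in the results was not tested. Whether the 3 replicates of a group were grown separately is not given. The p-values therefore reflect only how far libraries within groups spread, which may be technical. That spread was estimated over 27 libraries of 10 groups. Beside the groups named above, these were Sibjeondaebo-tang medium and low (3 libraries each) and Samul-tang high, medium and low (2 libraries each).

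The vehicle columns carry a different name prefix from the extract columns, although all titles name one batch. Any change of Palmul-tang high against vehicle may therefore also be one of the label sets, and these cannot be told apart. The 3 Palmul-tang doses share a prefix, so the results are sorted by whether a change was also called between the high and the low dose.

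Several well-studied response systems frame the results. The aryl hydrocarbon receptor (AHR) is activated by many plant compounds and switches on cytochrome P450 genes of the CYP1 family. NRF2 is released from its inhibitor KEAP1 by electrophiles and raises genes for glutathione synthesis, quinone reduction and drug export. HSF1 raises chaperones when proteins misfold. SREBP2 keeps up the genes of cholesterol synthesis when sterols run low. In hepatocytes, BMP ligands act through SMAD proteins to raise the ID genes and HAMP, which encodes hepcidin, the hormone that limits iron export by binding ferroportin.

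Promoters of 4 genes that mark changes that followed the dose and changes already present at the low dose are shown first, because 3 of these systems are defined by short DNA motifs. Each window, from RefSeq on GRCh38.p14, runs from 250 bases before to 50 bases after the annotated start, is on the minus strand and is written 5′ to 3′ along the gene. Capitals mark a match, on either strand, to the AHR core motif GCGTG in CYP1A1 (chr15:74725479-74725778), the antioxidant response element TGACNNNGC in GCLM (chr1:93909381-93909680) and the heat shock element (GAA, TTC and GAA units in a row, with NN between them) in HSPA8 (chr11:123062087-123062386) and CHORDC1 (chr11:90223000-90223299). The run of capitals in CHORDC1 holds 3 overlapping matches.
CYP1A1: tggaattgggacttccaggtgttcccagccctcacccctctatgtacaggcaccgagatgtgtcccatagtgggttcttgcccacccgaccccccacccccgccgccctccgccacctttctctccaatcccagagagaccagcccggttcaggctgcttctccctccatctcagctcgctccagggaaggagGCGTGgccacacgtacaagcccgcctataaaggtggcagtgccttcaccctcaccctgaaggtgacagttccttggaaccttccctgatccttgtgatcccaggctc
GCLM: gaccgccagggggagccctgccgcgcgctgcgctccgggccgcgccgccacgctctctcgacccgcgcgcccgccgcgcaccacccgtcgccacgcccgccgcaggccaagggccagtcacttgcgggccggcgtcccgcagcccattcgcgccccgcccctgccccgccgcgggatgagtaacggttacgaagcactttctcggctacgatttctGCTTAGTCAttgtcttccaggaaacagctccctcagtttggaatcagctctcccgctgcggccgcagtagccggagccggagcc
HSPA8: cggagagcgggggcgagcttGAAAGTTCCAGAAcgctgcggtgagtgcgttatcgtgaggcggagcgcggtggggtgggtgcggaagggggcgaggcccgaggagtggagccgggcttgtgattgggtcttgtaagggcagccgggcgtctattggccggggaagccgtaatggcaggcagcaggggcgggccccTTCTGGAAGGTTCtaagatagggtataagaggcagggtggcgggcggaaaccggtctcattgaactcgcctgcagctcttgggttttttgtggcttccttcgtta
CHORDC1: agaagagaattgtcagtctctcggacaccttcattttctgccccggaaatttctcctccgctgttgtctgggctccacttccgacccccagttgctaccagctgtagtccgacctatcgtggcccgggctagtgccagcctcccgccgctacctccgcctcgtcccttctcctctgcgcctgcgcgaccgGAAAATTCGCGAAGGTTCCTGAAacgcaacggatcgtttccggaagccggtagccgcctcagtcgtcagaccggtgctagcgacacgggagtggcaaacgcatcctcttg
A match is a description of these letters and not evidence of binding. Of 11066 tested genes with a promoter window, 49.9% held GCGTG, 15.3% held TGACNNNGC and 0.298% held the heat shock element. Among the 341 genes with a window that were higher in Palmul-tang high and followed the dose, the shares were 48.7% and 16.7% for the first pair of motifs, and none held the heat shock element. Among 1009 genes that were higher and already changed at the low dose, 7 (0.694%) held the heat shock element. In the gene lists, 8 of 11 AHR targets held GCGTG, 4 of 21 NRF2 targets held TGACNNNGC and 3 of 20 heat shock genes held the heat shock element. Other lists held a motif more often than these, with GCGTG in 15 of 18 cholesterol genes and TGACNNNGC in 7 of 20 integrated stress response genes.

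Palmul-tang high differed from vehicle in 5118 genes at an adjusted p under 0.05 (edgeR quasi-likelihood test, Benjamini-Hochberg over all tested genes), 31.8% of those tested. Of these, 2616 (16.3%) were higher and 2502 (15.6%) were lower. These shares are the background for each list count at the high dose against vehicle given below. Most changes were small, with 281 genes at 1 or more on the log2 scale. In bulk RNA, fewer cells that express a gene and less RNA per cell cannot be told apart. CPM of the 3 Palmul-tang high and 3 vehicle libraries did not overlap for 7120 genes (44.3%). Of the called genes, 802 (15.7%) followed the dose, meaning that they were also called in the same direction between the high and the low dose. These 802 comprised 439 higher and 363 lower genes, and in 737 of them the medium dose lay in between. A larger group of 2568 genes (50.2%) was already called at the low dose, in the same direction, and was not called between the high and the low dose. Of all tested genes, 8.08% were higher and 7.88% lower in this way. A further 1742 genes (34%), 5.42% of all genes in each direction, fell in neither group. They were not called between high and low, nor in the same direction at the low dose against vehicle. The medium dose was not part of this sorting, so some of them may also have been called there. Another 6 genes (0.0373%) moved against the dose. The comparison of high with low called 1091 genes (6.78%), 603 higher (3.75% of tested genes) and 488 lower (3.03%). It shares the high-dose libraries with the comparison of high with vehicle, and low against vehicle shares the vehicle libraries, so the overlaps describe these libraries and were not tested.

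**Figure D1:**
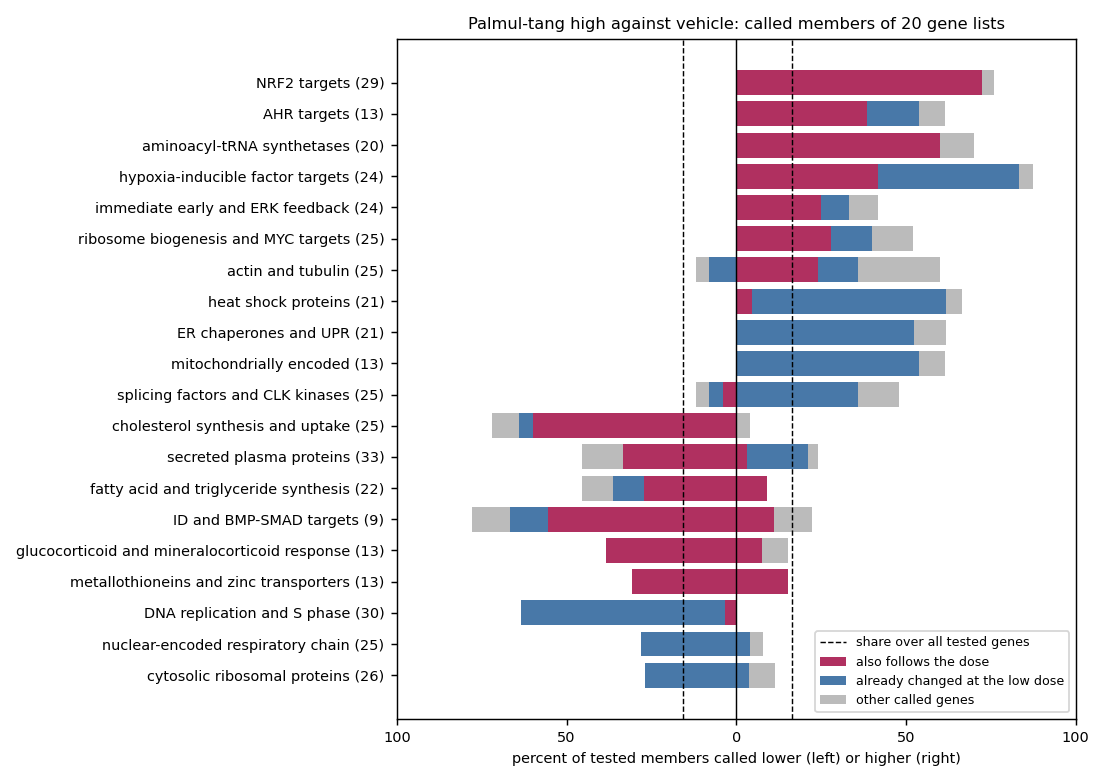
Share of tested members of 20 gene lists called in Palmul-tang high against vehicle, with lower calls to the left and higher calls to the right of 0, in percent. The 20 lists are a selection from 47. Some of those left out were split in direction, such as PPARA and fatty acid oxidation genes (9 higher and 9 lower of 23). Colours split the calls by whether they followed the dose, were already present at the low dose or were neither. Dashed lines mark the shares over all 16083 tested genes (16.3% higher, 15.6% lower). NRF2 targets, aminoacyl-tRNA synthetases and cholesterol genes are mostly dose-following calls, and heat shock, ER chaperone and S phase genes are mostly already called at the low dose.

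Genes of foreign compound metabolism included some of the largest dose-following changes. CYP1A1, a cytochrome P450 that oxidises polycyclic aromatic compounds and whose promoter is shown above, had 185, 179.9 and 169.5 CPM in Palmul-tang high libraries, against 12.5, 9.56 and 11.7 CPM in vehicle libraries. Its mean level climbed at every dose, from 11.2 CPM with vehicle through 16.9 and 37.1 CPM with the low and medium doses to 178 CPM with the high dose. The log2 fold change was 4.00 ± 0.087 (SE) against vehicle and 3.40 ± 0.083 against the low dose. ALDH3A1, an aldehyde dehydrogenase of the same AHR group, had 5.70, 5.64 and 5.30 CPM in Palmul-tang high and 1.69, 1.60 and 1.53 CPM in vehicle, while its low-dose mean of 1.36 CPM was no higher than vehicle. UGT1A1, which conjugates bilirubin and many drugs, had 30.2, 31.4 and 29.6 CPM in Palmul-tang high and 14.9, 11.8 and 12.7 CPM in vehicle (log2 1.22 ± 0.082, adjusted p 1.42e-12). UGT1A genes share exons, so this value is uncertain as to which of them it counts. Of 13 tested AHR targets, 8 were higher and none lower, beside 16.3% and 15.6% of all genes, and 5 of the 8 followed the dose (3 with DESeq2). The list median was 0.87 on the log2 scale, beside -0.01 for all tested genes. AHR itself, which is counted in this list although it is the receptor, was not called (log2 -0.05). Lists overlap, NQO1 being an AHR and an NRF2 target.

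Most NRF2 targets were higher and followed the dose. Of 29 tested members, 22 were higher with Palmul-tang high and none lower, and 21 of these 22 followed the dose, beside 2.73% of all genes that were higher and followed the dose. At the low dose none was higher than vehicle and 7 were lower, and at the medium dose 6 were higher and 5 lower. Of all genes, 11.5% were higher and 11.7% lower at the low dose, and 11.6% and 10.8% at the medium dose. The list median was 0.41 on the log2 scale against vehicle and 0.46 against the low dose. In the high against the medium dose, 23 members were higher and none lower, beside 1.16% and 1.1% of all genes. GCLM, the regulatory subunit of glutathione synthesis, had 57.5, 54.3 and 54.1 CPM in Palmul-tang high and 31.3, 27.9 and 30.5 CPM in vehicle. SLC7A11, which imports the cystine that glutathione is made from, had 63.6, 58.3 and 57.3 CPM in Palmul-tang high and 29.9, 25.1 and 28.6 CPM in vehicle (log2 1.11 ± 0.098). Neither gene's groups overlapped. AKR1B10, an aldo-keto reductase, had 121, 108 and 126 CPM in Palmul-tang high and 44.6, 40.6 and 42.1 CPM in vehicle, with 38.3 CPM at the low and 47.6 CPM at the medium dose.

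SRXN1 and the export pumps show how the low dose sat relative to vehicle. SRXN1, which restores oxidised peroxiredoxins, had 126, 122 and 132 CPM in Palmul-tang high and 98.6, 102 and 98.4 CPM in vehicle, and its low-dose mean of 83.9 CPM was below vehicle (log2 -0.25, adjusted p 6.66e-05). Its rise with dose was therefore larger (log2 0.59 ± 0.041) than its difference from vehicle (log2 0.34 ± 0.041). ABCC2 and ABCC3, which export conjugated compounds into bile and blood, were higher by log2 0.47 ± 0.042 and 0.54 ± 0.051, and ABCB1, the multidrug pump P-glycoprotein, by 0.43 ± 0.045. ABCC6, another transporter of the family, was lower, at 63.8, 59.6 and 57.0 CPM in Palmul-tang high and 94.7, 95.6 and 91.8 CPM in vehicle. Of 16 tested drug transporters, 6 were higher and 5 lower, beside 16.3% and 15.6% of all genes. Other antioxidant and conjugation enzymes split too. GPX2, a glutathione peroxidase, and MGST1, a membrane-bound glutathione transferase, were higher by log2 0.85 ± 0.085 and 0.68 ± 0.083. SULT2A1, the liver's steroid sulfotransferase, and UGT2B4, which conjugates bile acids, were lower at log2 -0.45 ± 0.052 and -0.38 ± 0.055. NFE2L2, which encodes NRF2, and KEAP1, both counted in the NRF2 list, were not called (log2 -0.03 and 0.01).

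**Figure D2:**
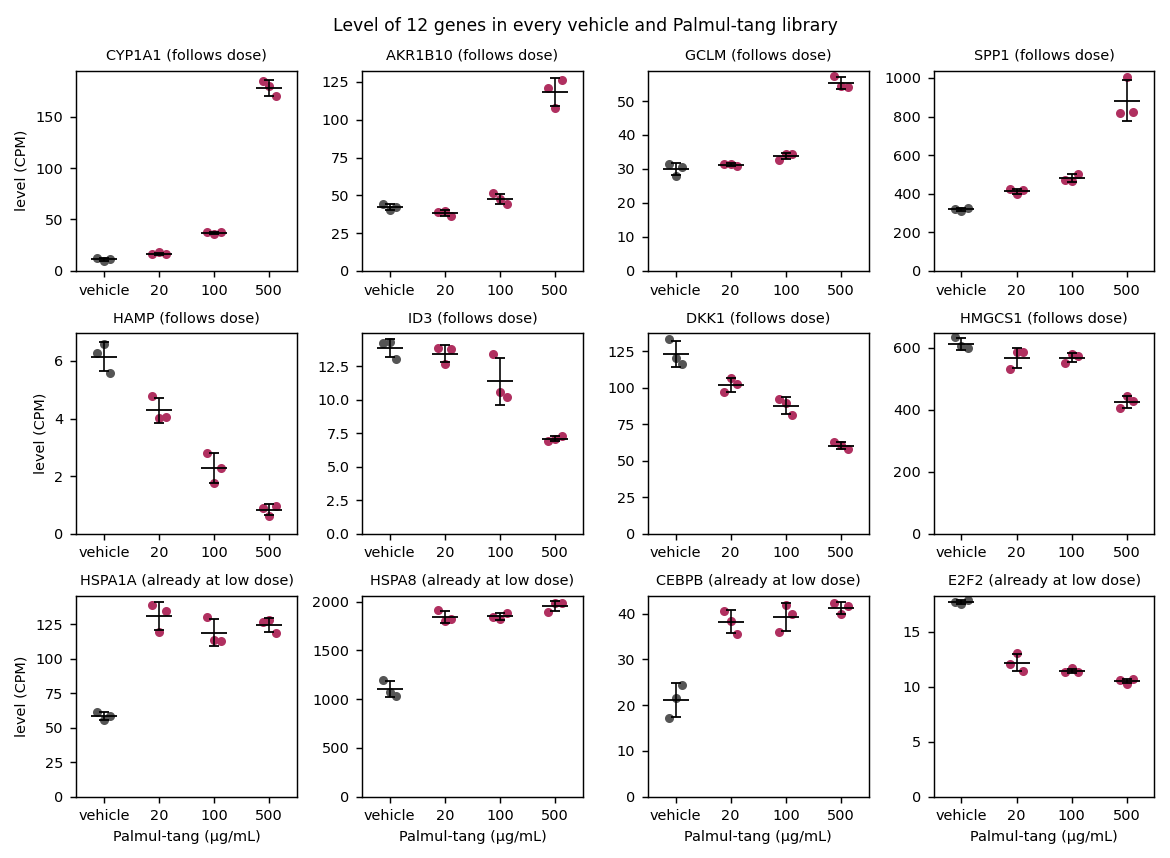
Levels of 12 genes in CPM by dose (vehicle, 20, 100 and 500 µg/mL Palmul-tang), with 1 point per library and the mean ± SD of 3 libraries. CYP1A1, AKR1B10, GCLM and SPP1 are highest and HAMP, ID3, DKK1 and HMGCS1 lowest at the high dose, whereas HSPA1A, HSPA8, CEBPB and E2F2 differ from vehicle by a similar amount at all 3 doses.

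Genes for charging tRNAs and for amino acid supply were higher by small amounts. Of 20 tested cytosolic aminoacyl-tRNA synthetases, which attach amino acids to their tRNAs, 14 were higher and none lower, and 12 of the 14 followed the dose. Without Palmul-tang high replicate 3, 11 were higher and 8 followed the dose. At the low dose 2 were higher than vehicle and at the medium dose 6 were, beside 11.5% and 11.6% of all genes, so the low-dose count is near background. The list median was 0.16 on the log2 scale. GARS1, the glycine enzyme, had 176, 198 and 183 CPM in Palmul-tang high and 144, 140.4 and 132 CPM in vehicle (log2 0.42 ± 0.054, adjusted p 5.74e-07). TARS1, the threonine enzyme, had 167, 165 and 169 CPM in Palmul-tang high and 127, 125 and 125 CPM in vehicle, a change of log2 0.41 ± 0.043 with no overlap. ASNS, asparagine synthetase, was higher by log2 0.53 ± 0.050, and its low-dose mean of 42.4 CPM lay beside the vehicle mean of 43.1 CPM. GDF15, a secreted stress hormone, had 230.1, 224 and 226 CPM in Palmul-tang high and 146, 159 and 139 CPM in vehicle. The integrated stress response list as a whole, which holds ASNS and GDF15, had 12 of 22 members higher and 1 lower, with 5 of the 12 following the dose. Without Palmul-tang high replicate 2, 9 were higher and none lower. With only the Palmul-tang and vehicle libraries, 12 were higher and 3 lower. DDIT3, a pro-apoptotic factor at the end of that response, was not called (log2 -0.23, adjusted p 0.0547). It was called when only the Palmul-tang and vehicle libraries were fitted.

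**Figure D3:**
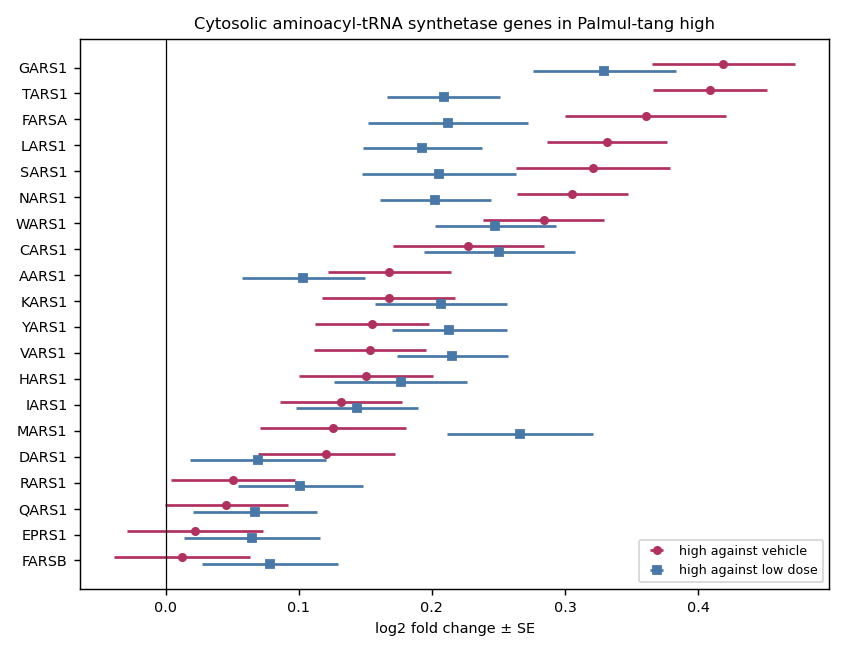
Log2 fold change ± SE of 20 cytosolic aminoacyl-tRNA synthetase genes in Palmul-tang high against vehicle and against the low dose. Against vehicle 14 were called higher and against the low dose 13 were, beside 16.3% and 3.75% of all genes. No member was called lower in either.

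Ribosome biogenesis and ERK feedback genes were higher where they were called. Of 25 ribosome biogenesis genes, 13 were higher and none lower, 7 of them following the dose (3 without Palmul-tang high replicate 3). NOP2, a nucleolar RNA methyltransferase, was higher by log2 0.39 ± 0.050, and ODC1, which makes polyamines, by 0.26 ± 0.048. Of 24 immediate early and ERK feedback genes, 10 were higher and none lower. DUSP6, the phosphatase that switches off ERK, had 149.6, 156 and 146 CPM in Palmul-tang high and 90.3, 85.9 and 93.2 CPM in vehicle, and EGR1, an ERK-induced factor, was higher by log2 0.68 ± 0.079. Both followed the dose. Proteasome genes had 7 of 22 members higher and 2 lower (4 higher without Palmul-tang high replicate 3, and none lower without Palmul-tang high replicate 2 or vehicle replicate 2), with PSMD11 and PSMD12, lid subunits, at log2 0.21 ± 0.045 and 0.26 ± 0.046.

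Matrix and adhesion genes were among the larger dose-following changes, with 9 of 22 higher and 2 lower (1 lower without Palmul-tang high replicate 1). Of the 9, 6 followed the dose (3 without Palmul-tang low replicate 1). SPP1, which encodes the secreted adhesion protein osteopontin, had 818, 1003 and 821 CPM in Palmul-tang high and 323, 309 and 324 CPM in vehicle. The increase was log2 1.47 ± 0.092 against vehicle and 1.09 ± 0.091 against the low dose. ITGA2, the collagen-binding integrin α2 chain, had 113, 111 and 112 CPM in Palmul-tang high and 56.4, 56.0 and 60.8 CPM in vehicle, with means of 80.5 and 94.9 CPM at the low and medium doses. Its partner chain ITGB1 was higher by log2 0.31 ± 0.042. In SPP1 and ITGA2 the 3 high and 3 vehicle libraries did not overlap. Actin and tubulin genes were also more often higher, in 15 of 25 cases with 3 lower, TPM1 (tropomyosin) at log2 0.28 ± 0.045 and TUBB6 (a β-tubulin) at 0.39 ± 0.072 among them. Of these 15, 6 followed the dose, and 3 did without Palmul-tang low replicate 3.

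Large dose-following changes also lay outside the lists. TMCC1, an endoplasmic reticulum membrane protein, had 94.2, 87.0 and 99.8 CPM in Palmul-tang high and 27.1, 27.6 and 27.6 CPM in vehicle, with means of 58.5 and 83.9 CPM at the low and medium doses. PPP2R2C, a regulatory subunit of protein phosphatase 2A, had 9.02, 10.5 and 8.85 CPM in Palmul-tang high and 3.41, 3.10 and 3.98 CPM in vehicle. Both were well apart from vehicle in every library. DTX4, a ubiquitin ligase, had 8.29, 7.71 and 9.96 CPM in Palmul-tang high and 17.8, 17.4 and 18.0 CPM in vehicle, and MMP11, a matrix metalloproteinase, had 6.87, 6.26 and 6.09 CPM in Palmul-tang high and 12.1, 11.6 and 10.9 CPM in vehicle. Against the low dose these were lower at log2 -0.55 ± 0.087 and -0.53 ± 0.099.

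Hypoxia-inducible factor targets were higher at each dose, with the highest median at the medium dose. Of 24 tested members, 21 were higher with Palmul-tang high and none lower, and the median log2 fold changes against vehicle were 0.37 at the low, 0.68 at the medium and 0.49 at the high dose. Between the high and the medium dose, BNIP3L and SLC2A3 were lower and HIF1A was higher at the high dose. Of the 21, 10 followed the dose (5 without Palmul-tang high replicate 1) and 10 were already called at the low dose. NDRG1, a stress-induced gene, averaged 36.8 CPM with vehicle and 60.2, 81.6 and 71.5 CPM with the low, medium and high doses. PDK1, which diverts pyruvate from the mitochondria, averaged 33.8 CPM with vehicle and 46.1, 64.3 and 57.3 CPM with rising dose. PFKFB3, which stimulates glycolysis, averaged 2.38 CPM with vehicle and 5.99, 13.1 and 9.70 CPM. None of these 3 was called between the high and the medium dose (adjusted p 0.383, 0.0923 and 0.352). HIF1A, the oxygen-regulated subunit itself and counted in the list, was higher by log2 0.43 ± 0.054. VEGFA, the angiogenic growth factor, had 158, 173 and 154 CPM in Palmul-tang high and 105, 112 and 108 CPM in vehicle and a low-dose mean of 146 CPM.

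Hepcidin transcript was lower the higher the dose. HAMP (chromosome 19, 35280716 to 35285143, GRCh38) had 0.904, 0.620 and 0.968 CPM in Palmul-tang high libraries, against 6.27, 6.58 and 5.58 CPM in vehicle libraries. Its means were 6.14, 4.28, 2.29 and 0.831 CPM with vehicle and the low, medium and high doses, a stepwise decline. The log2 fold change was -2.90 ± 0.18 against vehicle (adjusted p 1.51e-13) and -2.36 ± 0.18 against the low dose. Genes of its pathway list, which holds HAMP too, were mostly lower. Of 9 tested members of the ID and BMP-SMAD list, 7 were lower, HAMP itself among them, and 2 higher. Of the 7, 5 followed the dose, again with HAMP among them, beside 2.26% of all genes that were lower and followed the dose. ID3, an inhibitor of helix-loop-helix factors, had 6.90, 7.09 and 7.33 CPM in Palmul-tang high and 14.3, 14.3 and 13.1 CPM in vehicle (log2 -0.97 ± 0.094). ID1 was lower at log2 -0.47 ± 0.070, and SMAD7, an inhibitory SMAD induced by the pathway, at -0.43 ± 0.10. The 2 higher members were BAMBI, a decoy receptor (0.36 ± 0.089), and BMP4, a ligand, at 91.8, 106 and 94.4 CPM in Palmul-tang high and 70.0, 64.3 and 65.1 CPM in vehicle.

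Some other iron genes changed beside hepcidin. SLC40A1, which encodes the iron exporter ferroportin, had 30.6, 31.4 and 33.8 CPM in Palmul-tang high and 49.5, 47.1 and 49.6 CPM in vehicle, and the decline followed the dose (log2 -0.61 ± 0.050 against vehicle and -0.31 ± 0.051 against the low dose). FTH1, the ferritin heavy chain that stores iron, had 2688, 3059 and 2543 CPM in Palmul-tang high and 1852, 1908 and 1791 CPM in vehicle, and HMOX1, which frees iron from haem, was higher by log2 0.34 ± 0.060. FTH1 has many pseudogenes, so its count is uncertain. In all, 3 of 17 tested iron genes were higher and 5 lower (2 lower without Palmul-tang high replicate 2). Of all genes, 16.3% were higher and 15.6% lower, so the higher count is near background. The transferrin receptors TFRC and TFR2 were not called (log2 -0.01 and -0.03). Metallothioneins and zinc transporters, which buffer and move zinc, had 2 of 13 members higher and 4 lower, and all 6 followed the dose (1 higher without Palmul-tang high replicate 1). The count of higher members is near the background of 16.3% here too. MT1F had 28.3, 23.4 and 24.8 CPM in Palmul-tang high and 55.4, 43.8 and 43.8 CPM in vehicle, and SLC39A10, a zinc importer, had 17.2, 16.3 and 19.8 CPM in Palmul-tang high and 12.1, 12.1 and 10.8 CPM in vehicle. The metallothionein genes are near-identical, so reads may be divided between them, and the lower calls that followed the dose numbered 2 without Palmul-tang high replicate 2.

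Cholesterol synthesis genes were lower together at the high dose. Of 25 tested members, 18 were lower with Palmul-tang high and 1 higher, and 15 of the 18 followed the dose. At the low dose 3 were lower and 3 higher, and at the medium dose 4 were lower and 3 higher, beside 11.7% lower and 11.5% higher of all genes at the low dose and 10.8% and 11.6% at the medium dose. In the high against the medium dose 16 were lower and none higher, beside 1.1% and 1.16% of all genes. The list median was -0.29 on the log2 scale. HMGCS1, the first enzyme committed to the pathway, had 404, 444 and 429 CPM in Palmul-tang high and 635, 606 and 598 CPM in vehicle, and its low and medium means were 567 and 567 CPM. LSS, which closes the sterol rings, had 191, 178 and 187 CPM in Palmul-tang high and 262, 283 and 286 CPM in vehicle (log2 -0.58 ± 0.054, adjusted p 1.37e-09). SREBF2, which encodes SREBP2 and is counted in the list, was not called (log2 -0.09).

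Fatty acid and triglyceride genes were lower in 10 of 22 cases and higher in 2 (1 without Palmul-tang high replicate 1). DGAT2, which completes triglyceride synthesis, had 43.5, 42.1 and 43.7 CPM in Palmul-tang high and 64.1, 64.0 and 61.2 CPM in vehicle, and GPAM, which begins it, was lower at log2 -0.49 ± 0.049. FADS2, a fatty acid desaturase, was lower at log2 -0.26 ± 0.040 against vehicle although its low-dose mean of 372 CPM was above the vehicle mean of 329 CPM. The higher members were CIDEC and PLIN2, both lipid droplet coat proteins. PLIN2 had 323, 316 and 314 CPM in Palmul-tang high and 192, 203 and 197 CPM in vehicle, with its highest mean, 341 CPM, at the medium dose.

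**Figure D4:**
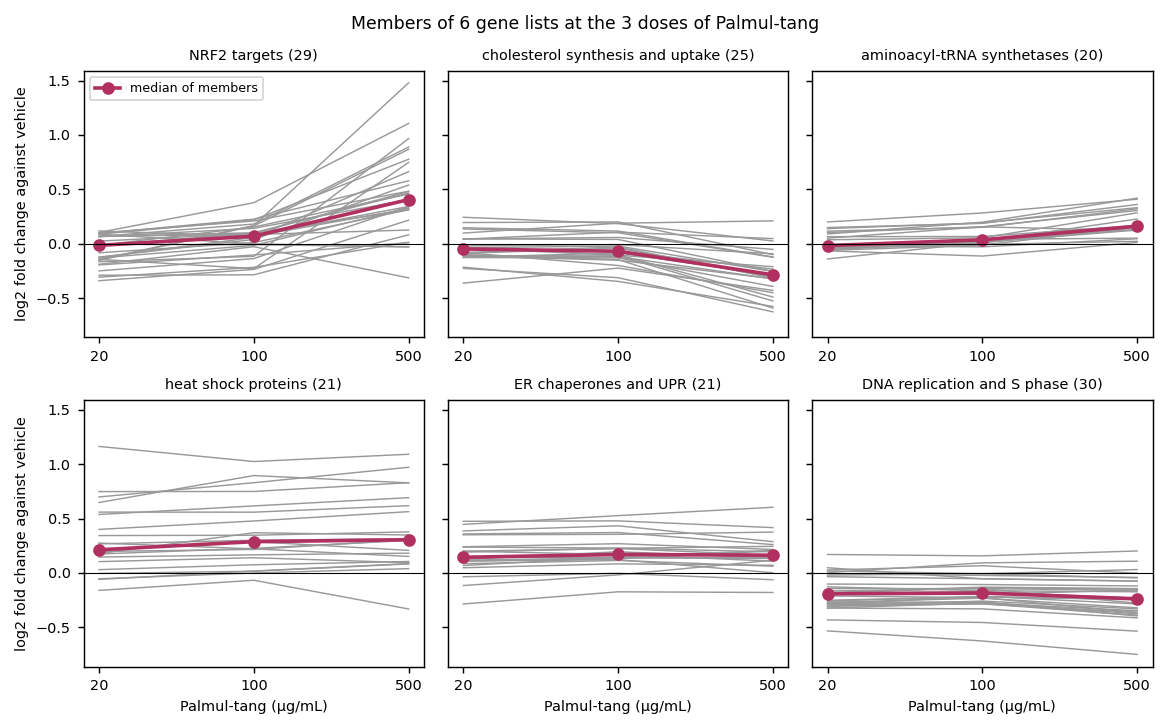
Log2 fold change against vehicle of the members of 6 gene lists at 20, 100 and 500 µg/mL Palmul-tang, 1 thin line per gene and the list median as a thick line. NRF2, aminoacyl-tRNA synthetase and cholesterol medians stay near 0 at the lower doses and depart at 500 µg/mL, to 0.41, 0.16 and -0.29. Heat shock, ER chaperone and S phase medians are already at 0.21, 0.14 and -0.19 at 20 µg/mL.

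Transcripts of plasma proteins declined more often than they increased. Of 33 tested, 15 were lower with Palmul-tang high and 8 higher, and 11 of the lower ones followed the dose (7 without Palmul-tang high replicate 2) whereas 6 of the 8 higher ones were already called at the low dose. Without Palmul-tang high replicate 2 the higher ones numbered 5. Without vehicle replicate 1 the contrast was smaller, with 10 lower and 8 higher. Albumin (ALB) had 8878, 8818 and 8384 CPM in Palmul-tang high and 11150, 11310 and 11990 CPM in vehicle, a change of log2 -0.40 ± 0.051. KNG1, the precursor of bradykinin, had 4.40, 4.65 and 5.07 CPM in Palmul-tang high and 10.7, 9.81 and 9.53 CPM in vehicle, and its low-dose mean of 10.6 CPM was at the vehicle level. HPX, which clears haem from plasma, was lower at log2 -0.59 ± 0.080 and HP, which binds free haemoglobin, at -0.37 ± 0.064. Among the higher ones, SERPINA1, the elastase inhibitor α1-antitrypsin, had 12250, 13960 and 12220 CPM in Palmul-tang high and 10180, 10430 and 10230 CPM in vehicle, with a low-dose mean of 13540 CPM.

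Transcription factors that set the hepatocyte programme were called in both directions. CEBPA, which sustains it, had 66.2, 63.1 and 64.0 CPM in Palmul-tang high and 92.2, 104 and 95.0 CPM in vehicle, and it followed the dose (log2 -0.59 ± 0.048 against vehicle, -0.43 ± 0.049 against low). CEBPB, the inducible relative that takes part in acute phase and stress responses, had 42.4, 39.9 and 41.6 CPM in Palmul-tang high and 17.2, 21.6 and 24.4 CPM in vehicle, and was already at 38.2 CPM at the low dose. NR1H4, the bile acid receptor FXR, was lower at log2 -0.24 ± 0.048 and NR0B2, the repressor SHP, higher by 0.51 ± 0.064. HNF4A, a central hepatocyte factor, was not called (log2 0.11, adjusted p 0.0643). It was called with DESeq2. Of 22 such factors, 7 were higher and 5 lower, beside 16.3% and 15.6% of all genes. In amino acid breakdown, 6 of 23 genes were lower and 2 higher, beside 15.6% and 16.3% of all genes (1 higher without Palmul-tang high replicate 2). GLUD1, glutamate dehydrogenase, had 397, 381 and 376 CPM in Palmul-tang high and 563, 542 and 567 CPM in vehicle, and CPS1, the entry enzyme of the urea cycle, was lower at log2 -0.43 ± 0.050.

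Further dose-following declines were seen in steroid-responsive genes and in single Wnt and YAP targets. Of 13 tested glucocorticoid and mineralocorticoid response genes, 5 were lower, all following the dose (3 without Palmul-tang high replicate 3). Another 2 were higher (1 without Palmul-tang high replicate 2), near the 16.3% of all genes. SGK1, a kinase induced by both hormones, had 17.9, 14.9 and 16.9 CPM in Palmul-tang high and 31.0, 29.4 and 33.7 CPM in vehicle. SCNN1A, a subunit of the epithelial sodium channel, had 8.77, 8.61 and 8.44 CPM in Palmul-tang high and 15.8, 13.5 and 15.9 CPM in vehicle, and HSD11B2, which inactivates cortisol, was lower at log2 -0.51 ± 0.076. The glucocorticoid receptor gene NR3C1, itself a member of this list, was lower at log2 -0.40 ± 0.067. DKK1, a secreted Wnt antagonist, had 62.8, 60.5 and 57.9 CPM in Palmul-tang high and 133, 120.3 and 116 CPM in vehicle, and its means declined in order to 102, 87.7 and 60.4 CPM with the low, medium and high doses. The Wnt list as a whole had 3 of 15 members lower and 2 higher, close to the 15.6% and 16.3% of all genes, and 10 members, AXIN2 among them (log2 -0.11), were not called. ANKRD1, a target of the YAP coactivator, had 7.00, 5.78 and 6.41 CPM in Palmul-tang high and 12.8, 13.1 and 14.6 CPM in vehicle, while the YAP list had 6 of 19 lower and 4 higher (2 higher without Palmul-tang high replicate 2).

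Most chaperone genes that were higher at the high dose were already higher at the low dose. Of 21 tested heat shock genes, 14 were higher and none lower. Of the 14, 12 were already called at the low dose and 1 followed the dose (none with median-ratio factors). HSPA8, the constitutive HSP70 whose promoter is shown above, had 1897, 1983 and 1988 CPM in Palmul-tang high and 1196, 1070 and 1037 CPM in vehicle (log2 0.83 ± 0.053). Its low and medium means were 1848 and 1850 CPM, and high against low gave log2 0.08 ± 0.052 (adjusted p 0.435). CHORDC1, an HSP90 cochaperone, had 71.3, 76.2 and 75.0 CPM in Palmul-tang high and 51.5, 43.5 and 50.2 CPM in vehicle, with 71.3 CPM at the low dose. HSPA1A, the inducible HSP70, had 127, 128 and 118 CPM in Palmul-tang high and 61.6, 55.8 and 58.0 CPM in vehicle, and its near-identical copy HSPA1B had 128, 123 and 123 CPM in Palmul-tang high and 87.9, 75.7 and 67.8 CPM in vehicle, so reads may be divided between the pair. Of 21 ER chaperone genes, 13 were higher, 11 already at the low dose and none following the dose. MANF, a protein secreted under ER stress, had 109, 105 and 112 CPM in Palmul-tang high and 81.2, 82.2 and 80.8 CPM in vehicle, with a low-dose mean of 113 CPM. Differences already called at the low dose rest on the comparison with vehicle alone, with no dose step called within one label set beside them.

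DNA replication genes showed the same pattern downward. Of 30 S phase genes, 19 were lower and none higher (1 higher with DESeq2), 18 already called at the low dose. E2F2, a factor that drives S phase genes, had 10.6, 10.3 and 10.7 CPM in Palmul-tang high and 17.6, 17.5 and 17.8 CPM in vehicle, with means of 12.2 and 11.4 CPM at the low and medium doses. E2F1 was lower at log2 -0.54 ± 0.055 and MCM2, a replicative helicase subunit, at -0.40 ± 0.052. MCM3, another helicase subunit, was the 1 member called also against the low dose, a call lost without Palmul-tang high replicate 1 or 2 (log2 -0.15 ± 0.042, adjusted p 0.0229). Promoter windows held an E2F motif (TTTCCCGC or TTTGGCGC) in 14 of 26 S phase genes with a window, and in 3.59% of all. Mitosis genes did not share the direction, with 9 of 25 higher and 8 lower. BUB1, a spindle checkpoint kinase, was higher by log2 0.29 ± 0.056, and CDK1, the mitotic kinase, was lower at -0.30 ± 0.056. Without vehicle replicate 2 the higher mitosis genes numbered 5, and without Palmul-tang high replicate 2 the lower ones numbered 4. CDKN1A, a p53-induced cell cycle inhibitor, was not called (log2 0.06, adjusted p 0.455).

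In 4 further lists at most 1 call followed the dose. Of 25 splicing factors and CLK kinases, 12 were higher and 3 lower, 9 of the higher ones already at the low dose (7 of 25 higher without Palmul-tang high replicate 3). CLK3, a kinase of splicing factors, had 51.9, 54.0 and 47.2 CPM in Palmul-tang high and 35.8, 37.8 and 35.4 CPM in vehicle. Of 13 mitochondrially encoded genes, 8 were higher, but none was without Palmul-tang high replicate 2. MT-ATP8 had 912, 1541 and 982 CPM in Palmul-tang high and 328, 705 and 625 CPM in vehicle, with replicate 2 well above the other high libraries. Of 26 cytosolic ribosomal protein genes, 7 were lower and 3 higher, beside 15.6% and 16.3% of all genes. Without vehicle replicate 1 there were 2 lower, without Palmul-tang high replicate 2 or vehicle replicate 2 there was 1 higher, and with no filter on low counts 7 were higher. Nuclear-encoded respiratory chain genes were lower in 7 of 25 and higher in 2, beside background shares of 15.6% and 16.3%, and 4 were lower without Palmul-tang high replicate 2 and 1 higher without replicate 1. The 6 genes that moved against the dose were all higher than vehicle and lower than at the low dose. ALAD, a haem synthesis enzyme, had 46.2, 50.7 and 45.1 CPM in Palmul-tang high and 39.4, 43.7 and 42.7 CPM in vehicle, below its low-dose mean of 55.5 CPM. SERPIND1, heparin cofactor, had 374, 379.8 and 357 CPM in Palmul-tang high and 344, 319.5 and 342 CPM in vehicle, and 427 CPM at the low dose. Both lost the call against vehicle in at least 1 alternative setting.

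Palmul-tang high was set against Sibjeondaebo-tang high, whose libraries share its prefix and dose, to see which responses differ between the related extracts. In this direct test 1041 genes (6.47%) were called, 759 higher (4.72%) and 282 lower (1.75%) in Palmul-tang high. The share of higher calls was 72.9%. It was 85% with median-ratio scaling, 69.6% with a replicate block and 91.9% without Sibjeondaebo-tang high replicate 3. The split therefore depends on scaling, on the model and on single libraries. Of the 210 genes chosen for naming, 24 were called, 11 higher and 13 lower. CYP1A1 had 185, 179.9 and 169.5 CPM in Palmul-tang high and 124, 127 and 160.1 CPM in Sibjeondaebo-tang high (log2 0.38 ± 0.071, adjusted p 0.0007). ABCC2 had 434, 420 and 449 CPM in Palmul-tang high and 322, 323 and 296 CPM in Sibjeondaebo-tang high (log2 0.47 ± 0.042, adjusted p 1.47e-09). ABCC3 and VEGFA were higher by log2 0.40 ± 0.051 and 0.34 ± 0.054, and AKR1B10 by 0.25 ± 0.057. Lower in Palmul-tang high were ASNS at log2 -0.20 ± 0.049, KNG1 at -0.30 ± 0.092 and UGT2B4 at -0.28 ± 0.056. HAMP, at 0.831 ± 0.186 CPM (SD, n = 3) in Palmul-tang high and 0.697 ± 0.163 CPM (SD, n = 3) in Sibjeondaebo-tang high, and HSPA8 were not called between the extracts (log2 0.22 ± 0.26 and -0.06 ± 0.052), which does not show that the extracts act alike on them. The count was 545 without Sibjeondaebo-tang high replicate 3 and 675 without Palmul-tang high replicate 1.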

How the data were processed

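RNA of HepG2 cells was sequenced with a directional kit, per the labels' protocols. The authors deposited 1 table of expected counts with 60675 gene rows, and its 240 columns from other samples were left aside. RSEM 1.3.3, STAR 2.7.3a, Trim Galore 0.6.5 and FastQC 0.11.9 are named as tools, and GRCh38 and hg38 as builds, per the submitters' processing notes. The annotation release and the strand setting are not given in the sources used here. Expected counts share reads among similar genes, so 8.56% of values were not whole, and close paralogs and pseudogenes are uncertain. The series design text gives the vehicle as DMSO at another concentration than the sample labels; the sample value is used here.

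Expected counts were rounded and filtered by filterByExpr (minimum count 10, minimum total 15), leaving 16083 genes. A robust quasi-likelihood model with TMM factors was fitted in edgeR 4.0.16 (R 4.3.3) to 27 libraries of 10 groups, which left 17 residual degrees of freedom. Tests were two-sided, and p-values were adjusted over all 16083 genes by the Benjamini-Hochberg method, with a threshold of 0.05. The SE was taken from the log2 fold change and the F statistic, and levels are CPM with TMM factors. Replicate pairs within the 5 groups described lay 4.83 to 17.2 times above counting noise, so none of these pairs agreed within sampling noise. Other pairs were not compared. Symbols came from a name table that matched 56558 rows, and positions are on GRCh38.

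The members and the lists (998 symbols, all matched) were chosen with earlier results of these data known. Of called genes with a mean of 4 CPM or more and separated groups, the 12 largest each way that followed the dose, the 8 largest each way already changed at the low dose and the largest that moved against the dose were named. Up to 4 called members per list by adjusted p, at any level, and 15 genes always given were named too. AHR, KEAP1, BNIP3L, SLC2A3, SREBF2, HIF1A, BAMBI, SMAD7, CIDEC, TFRC, TFR2, NR3C1, AXIN2, SERPINA1, HSPA1B and LYZ fall outside the rule and were chosen after their values were seen. Some genes that the rule names are not reported here. Promoters came from RefSeq. The script was tested on simulated counts. Alternatives were DESeq2 1.42.0, median-ratio factors, no filter, fewer groups in the fit, a replicate block, leaving out 1 replicate at a time, and library sizes without mitochondrial genes.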

Additional observations from a re-analysis of the deposited data

How the results depend on the processing

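Palmul-tang high against vehicle gave 4697 calls with DESeq2, 5132 with median-ratio factors, 5017 with no filter, 5167 from the 12 Palmul-tang and vehicle libraries alone and 5120 without mitochondrial genes. Leaving out 1 library of the groups compared gave 3798 to 4612 calls. Counts of the other comparisons depended more on single libraries. Left out one at a time, high against low gave 702 (without Palmul-tang low replicate 2) to 827 calls, high against medium 215 to 278 and high against Sibjeondaebo-tang high 545 to 925. Low against vehicle gave 2392 (without vehicle replicate 2) to 3187, and medium against vehicle 2309 (without Palmul-tang medium replicate 3) to 3424. Genes that followed the dose numbered 535 to 745, and those already changed at the low dose 1675 (without vehicle replicate 2) to 2414. At an adjusted p under 0.01 in both comparisons, 437 genes followed the dose. The cause of these shifts was not tested beyond the smaller number of libraries.

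The replicate numbers did not pair the samples, since same-numbered high and vehicle libraries had correlations of 0.033, 0.0199 and -0.00128 in their deviations from the group means. With the replicate number as a block, 5249 genes were called against vehicle and 1154 against the low dose, and no call of a gene named by rule changed. Of the genes named by rule, NFE2L2, called in no setting, lay between log2 -0.07 and 0.01, and no other changed sign. Those that lost the call in at least 1 alternative included ALAD, BRMS1L, CYP2U1, CYP7A1, IL1RAP, ISG15, MT-ATP8, MT-CO1, MT-ND5, MT-ND6 and SERPIND1, and DDIT3 and HNF4A gained it in 1 each. List counts given in the report without 1 library are the lowest over the libraries left out, and leaving out others moved several of them too. With 3 libraries a group, small changes that were not called may have been missed.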
